A study of Mus musculus with 24 samples.

Results

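The milk protein genes of the mouse are the 5 casein genes Csn1s1, Csn2, Csn1s2a, Csn1s2b and Csn3, the whey acidic protein gene Wap and the alpha-lactalbumin gene Lalba. They were taken by name, with no threshold on a measured value, after the Entrez gene identifiers had been matched to gene symbols. All 7 were found among the 27080 genes counted, of which 25189 have a symbol. Their chromatin was measured in basal cells sorted from the mammary glands of untreated C57BL/6 females, by chromatin immunoprecipitation and sequencing of H3K4me3 and H3K27me3. The cells were divided by Lgr5, an R-spondin receptor that strengthens Wnt signalling, and by Tspan8, a tetraspanin of the cell membrane, into Lgr5+Tspan8hi, Lgr5+Tspan8-, Lgr5-Tspan8hi and Lgr5-Tspan8- subpopulations. For every mark and subpopulation there were 2 libraries, 16 in all. The labels name no age, no reproductive stage and no reporter or antibody for the sort, and do not say whether the 2 libraries of a subpopulation came from different mice. The p-values therefore reflect only how much these libraries vary, which may be technical. The question for these genes was which marks they carry in cells of the outer layer of the gland and whether the marks differ with Lgr5 or with Tspan8.

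Caseins, whey acidic protein and alpha-lactalbumin are made in large amounts by luminal alveolar cells in late pregnancy and lactation. Prolactin, with glucocorticoid, switches the genes on through the kinase JAK2 and the transcription factors STAT5A and STAT5B. C/EBP-beta, nuclear factor I proteins and ELF5 act together with these. Basal cells, which include the contractile myoepithelial cells that press milk out of the alveoli, are not the cells that make milk protein. H3K4me3 marks the promoters of active genes and of genes held ready, and H3K27me3 is the repressive mark of Polycomb complexes, which is densest over the developmental regulators that a cell type does not use.

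Libraries held 1472251 to 4740371 counts for H3K4me3 and 2639862 to 6972189 counts for H3K27me3. The Lgr5-Tspan8hi replicate 1 libraries stood apart in both marks, with 5844 genes at a count of 0 for H3K4me3, against 662 to 3007 in the other libraries, and 4191 genes for H3K27me3, against 1121 to 1557. Levels are given as CPM, counts relative to a library size that was scaled with TMM factors. H3K4me3 counts behave as counts around a gene start and are compared between genes as they are, whereas H3K27me3 counts grow with the length of the gene and are compared between genes as CPM per kb of gene. A count of 0 allows up to 3 counts, which came to 0.633 to 2.04 CPM in the H3K4me3 libraries, for counting error only.

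The caseins lie together within 266 kb of chromosome 5 of mm10 (GRCm38). Csn1s1, which encodes alpha-S1-casein, occupies chr5:87666208-87682578 on the plus strand. Csn2, for beta-casein, follows at chr5:87692619-87699429 on the minus strand. Csn1s2a (chr5:87774450-87788798) and Csn1s2b (chr5:87808121-87824421), for the alpha-S2-caseins, and Csn3 (chr5:87925579-87932550), for kappa-casein, which keeps the casein micelle from aggregating, are on the plus strand. Csn3 lies inside the long noncoding RNA gene 1700066N21Rik, so H3K27me3 reads of these genes cannot be told apart there. Wap is on the minus strand of chromosome 11 (chr11:6635483-6638654) and Lalba, whose product is the regulatory subunit of lactose synthase, on the minus strand of chromosome 15 (chr15:98480400-98482934).

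RefSeq promoter windows of GRCm38.p6, from 250 bases before to 50 bases after the start, were matched for 5 of the 7 genes, Csn1s1, Csn2, Csn1s2a, Wap and Lalba. They are shown because they share a feature that the choice of genes did not use, few or no CpG, with which H3K4me3 differed across all genes, as given further on. Capitals mark matches to TTCNNNGAA, the consensus of STAT5, which reads the same on both strands.
Csn1s1 (chr5:87665958-87666257, plus strand): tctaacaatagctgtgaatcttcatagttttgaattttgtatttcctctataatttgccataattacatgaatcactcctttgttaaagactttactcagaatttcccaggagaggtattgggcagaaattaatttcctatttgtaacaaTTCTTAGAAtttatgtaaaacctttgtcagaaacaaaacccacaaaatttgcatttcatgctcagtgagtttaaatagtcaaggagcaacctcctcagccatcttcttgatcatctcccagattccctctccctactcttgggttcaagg
Csn2 (chr5:87699376-87699675, minus strand): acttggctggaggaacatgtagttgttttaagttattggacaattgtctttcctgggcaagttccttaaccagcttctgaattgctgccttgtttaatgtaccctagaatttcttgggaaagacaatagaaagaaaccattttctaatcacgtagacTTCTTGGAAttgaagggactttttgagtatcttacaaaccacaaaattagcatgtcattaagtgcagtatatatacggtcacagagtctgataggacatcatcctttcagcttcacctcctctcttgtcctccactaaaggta
Csn1s2a (chr5:87774200-87774499, plus strand): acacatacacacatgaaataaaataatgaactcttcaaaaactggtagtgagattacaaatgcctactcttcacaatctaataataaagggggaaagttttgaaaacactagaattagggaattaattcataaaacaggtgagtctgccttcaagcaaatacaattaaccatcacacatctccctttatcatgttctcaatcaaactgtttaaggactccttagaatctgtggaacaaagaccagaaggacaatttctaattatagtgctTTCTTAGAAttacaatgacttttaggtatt
Wap (chr11:6638600-6638899, minus strand): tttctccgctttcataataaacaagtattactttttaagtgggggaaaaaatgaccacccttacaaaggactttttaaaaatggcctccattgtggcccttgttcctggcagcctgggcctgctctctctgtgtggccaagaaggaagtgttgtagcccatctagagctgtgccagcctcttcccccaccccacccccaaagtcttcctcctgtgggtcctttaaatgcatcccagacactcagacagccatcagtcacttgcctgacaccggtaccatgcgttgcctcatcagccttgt
Lalba (chr15:98482634-98482933, minus strand): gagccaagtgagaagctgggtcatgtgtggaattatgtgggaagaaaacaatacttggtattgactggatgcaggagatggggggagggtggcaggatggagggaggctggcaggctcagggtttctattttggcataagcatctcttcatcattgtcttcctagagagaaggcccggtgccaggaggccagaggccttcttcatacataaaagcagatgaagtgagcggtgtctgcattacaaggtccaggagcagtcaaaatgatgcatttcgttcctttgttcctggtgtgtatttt
The window held 0 CpG for Csn1s1 and Csn1s2a, 2 for Csn2 and 3 each for Wap and Lalba, against a median of 7 over the 32851 RefSeq windows. The G and C content was 32.3% to 38.7% in the 3 casein windows, 50.3% for Wap and 49.0% for Lalba. TTCNNNGAA occurred in 3 of the 5 windows, against 8.3% of all windows, starting at base -100 for Csn1s1, -93 for Csn2 and 21 for Csn1s2a, counted from the start site. TTGGC, a short nuclear factor I motif searched on both strands, occurred in 3 of the 5 (Csn2, Wap and Lalba), against 46.7% of all windows. TATAAA (13.6% of all windows) and TTGCNNAA, a C/EBP motif (10.8%), each searched on both strands, occurred in 0 of the 5. No searched motif overlapped another in these windows. The Lalba window belongs to a RefSeq start inside the annotated gene, so the whole window lies within the gene. These are matches of letters in a window and not measured binding.

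H3K4me3 was near the level of silent genes at Csn1s1, Csn2, Csn1s2a, Csn1s2b and Wap, and higher at Csn3 and Lalba. Over the 8 libraries Csn2 averaged 0.645 ± 0.797 CPM, Csn1s2a 0.808 ± 0.539 CPM, Csn1s2b 1.02 ± 1.04 CPM, Csn1s1 1.05 ± 2.07 CPM and Wap 1.88 ± 1.54 CPM (SD, n = 8). Lalba averaged 5.12 ± 3.16 CPM and Csn3 7.76 ± 2.70 CPM (SD, n = 8). The scale is set by 1104 olfactory receptor genes, which are silent outside the nose and had a median of 1.31 CPM (middle 50% from 0.988 to 1.67 CPM), and by 15 housekeeping genes with a median of 113 CPM. Csn3 lay above 99.6% and Lalba above 99.5% of the olfactory receptor genes, Wap above 83.2%, and the other 4 caseins above 6.70% to 29.8%. All 7 genes lay below 14 of the 15 housekeeping genes, the exception being Ywhaz at 0.495 CPM. Csn3, the highest of the 7, lay above 39.5% of all genes with a symbol, whose median was 28.1 CPM. The region counted per gene is not stated, so a low value need not cover every promoter of a gene. In bulk cells, a low level shared by every cell and a high level in a few cells cannot be told apart.

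**Figure D1:**
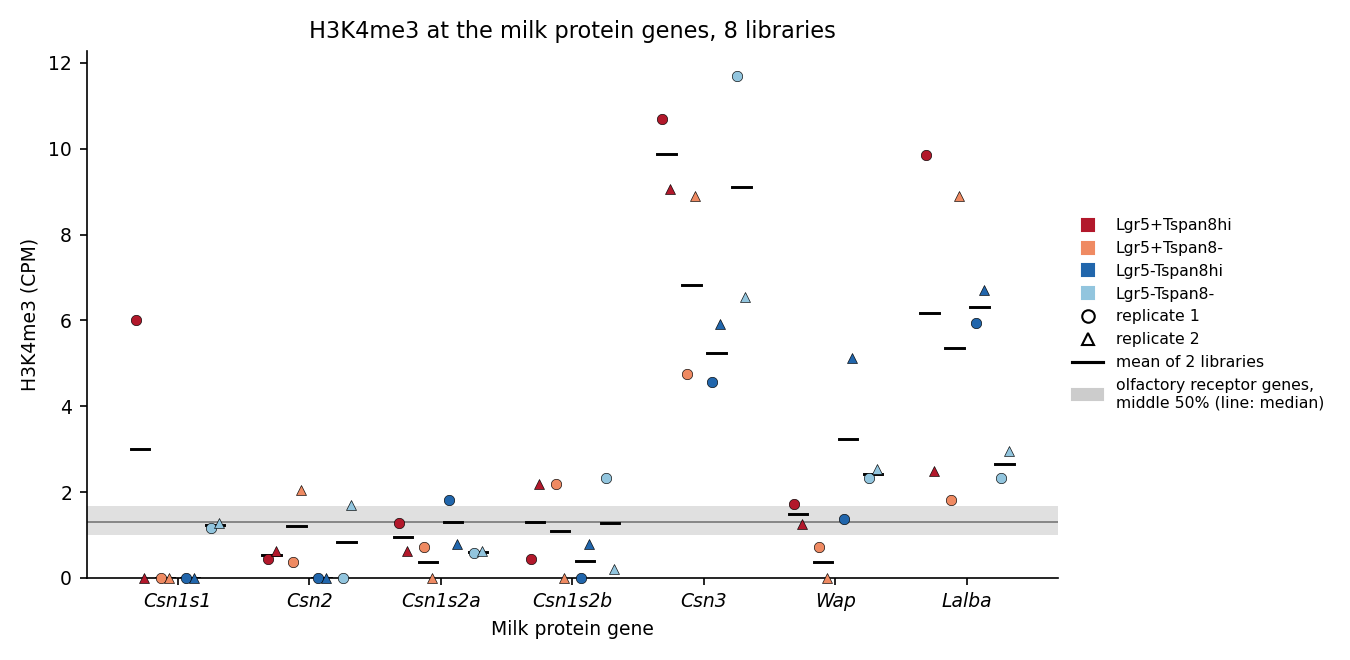
H3K4me3 in CPM (vertical axis) of each milk protein gene in 8 libraries, with colours for the subpopulations, circles and triangles for replicates 1 and 2, and a black bar for the mean of the 2 libraries. Csn3 (4.56 to 11.7 CPM) stood above the grey band of the olfactory receptor genes in all 8 libraries, and Lalba ranged from 1.82 to 9.85 CPM.

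Csn3 had the highest H3K4me3 of the caseins in 8 of 8 libraries. It read 10.7 and 9.07 CPM in Lgr5+Tspan8hi, 4.74 and 8.90 CPM in Lgr5+Tspan8-, 4.56 and 5.91 CPM in Lgr5-Tspan8hi, and 11.7 and 6.54 CPM in Lgr5-Tspan8- cells. The highest and the lowest library thus both came from Lgr5- cells, and each subpopulation overlapped its neighbour in the order of means. These values rest on 156 counts in all (95% exact Poisson interval 132 to 182), more than the 75 counts of the other 4 caseins together.

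Lalba read 9.85 and 2.50 CPM in Lgr5+Tspan8hi, 1.82 and 8.90 CPM in Lgr5+Tspan8-, 5.93 and 6.70 CPM in Lgr5-Tspan8hi, and 2.33 and 2.96 CPM in Lgr5-Tspan8- cells. In both Lgr5+ subpopulations the 2 libraries were far apart, while they were close to each other in both Lgr5- subpopulations. Lalba had 97 counts in all (95% exact Poisson interval 78.7 to 118), between 4 and 23 in a library.

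Wap, a small whey protein with WAP domains, had 42 H3K4me3 counts in all. It read 1.71 and 1.25 CPM in Lgr5+Tspan8hi, 0.729 and 0 CPM in Lgr5+Tspan8-, 1.37 and 5.12 CPM in Lgr5-Tspan8hi, and 2.33 and 2.53 CPM in Lgr5-Tspan8- cells. The Lgr5+ libraries (0 to 1.71 CPM) lay mostly below the Lgr5- libraries (1.37 to 5.12 CPM), and the 2 ranges overlapped.

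Csn1s1, Csn2, Csn1s2a and Csn1s2b had 22, 15, 17 and 21 H3K4me3 counts, and a count of 0 in 11 of their 32 values. Of the 22 counts of Csn1s1, 14 came from Lgr5+Tspan8hi replicate 1 (6.00 CPM), with 2 and 6 counts in Lgr5-Tspan8- cells (1.17 and 1.27 CPM) and 0 in the other 5 libraries. Csn2 had 8 of its counts in Lgr5-Tspan8- replicate 2 (1.69 CPM), the deepest H3K4me3 library, and 0 in 3 libraries. Csn1s2a never exceeded 4 counts (1.82 CPM) and Csn1s2b never exceeded 7 counts or 2.33 CPM in a library. At this depth, differences between subpopulations below a few CPM are not detectable for these 4 genes.

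No milk protein gene passed the test for H3K4me3. Csn3 and Lalba, 2 of the 7, had enough counts to be fitted with edgeR's quasi-likelihood test, in which a gene passed at a Benjamini-Hochberg adjusted p under 0.05 over all genes of the mark. Over the 19009 genes tested, 0.0473% passed for Tspan8hi over Tspan8-, 0.0421% for Lgr5+ over Lgr5-, 0% for the interaction and 0.0894% for any difference among the 4 subpopulations. Csn3 and Lalba passed in 0 of these comparisons, which at these shares of all genes says nothing particular about them, and neither had an unadjusted edgeR p under 0.05. DESeq2 and limma-voom called neither gene. For the interaction edgeR gave 799 genes an unadjusted p under 0.05, DESeq2 called 0 genes and limma-voom 2.

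For Csn3 the H3K4me3 log2 fold change was -0.09 ± 0.51 (SE) for Tspan8hi over Tspan8- and 0.24 ± 0.51 for Lgr5+ over Lgr5-. Its interaction, the Lgr5 difference in Tspan8hi cells minus that in Tspan8- cells, was 1.32 ± 1.03. For Lalba the values were 0.74 ± 0.70 for Tspan8hi over Tspan8-, 0.42 ± 0.70 for Lgr5+ over Lgr5- and -0.95 ± 1.41 for the interaction. The edgeR adjusted p-values of both genes were between 0.947 and 1.0. These misses do not show that the subpopulations are alike. The signs also turned on single libraries. Without Lgr5+Tspan8- replicate 2 the Csn3 Tspan8 value was 0.15, the Lalba Lgr5 value -0.30 and the Lalba interaction 0.50.

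The 5 genes with too few counts were compared as CPM with exact two-sided permutation tests over the 70 ways to divide 8 libraries 4 against 4, which can give no p below 0.0286. In these 10 tests the smallest p was 0.0571, for Wap, at a mean of 0.923 CPM over Lgr5+ against 2.84 CPM over Lgr5- libraries. Next came Csn1s2a, with 1.13 CPM in Tspan8hi and 0.486 CPM in Tspan8- libraries (exact permutation p = 0.0857). Both had an adjusted p of 0.428 over the 10 exact permutation tests, and the other 8 had adjusted p-values from 0.81 to 1.0. With 10 tests, a single gene at the smallest p would have an adjusted p of 0.286, so these misses were set by the design and say nothing on whether the subpopulations differ.

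H3K27me3 density over the 7 genes was low, below that of Polycomb target genes. No value is relative to input, so densities this low may be background, and the presence of the mark over these genes is not established. Per kb of gene, Csn3 averaged 0.517 ± 0.145 CPM, Csn1s2b 0.519 ± 0.162 CPM, Csn1s2a 0.705 ± 0.239 CPM, Csn2 0.782 ± 0.277 CPM and Csn1s1 0.928 ± 0.294 CPM (SD, n = 8). Wap averaged 1.12 ± 0.276 CPM per kb and Lalba 1.25 ± 0.395 CPM per kb (SD, n = 8). The median of all genes with a symbol was 0.603 CPM per kb, so Csn3 and Csn1s2b lay below it and the other 5 above. The olfactory receptor genes had a median of 1.27 CPM per kb, above all 7, but this order turned with the length used. With 5 kb added to every gene, an alternative chosen after seeing the data, their median was 0.225 CPM per kb and that of all genes 0.297, and all 7 milk protein genes (0.301 to 0.711) lay above both. The receptor genes are short, with a median length of 0.951 kb, and in CPM without length the 7 genes lay above 84.8% to 98.5% of them. Of the 30 developmental transcription factor genes listed as Polycomb targets, 30 lay above every milk protein gene, from Six2 at 2.00 to Foxd3 at 15.7 CPM per kb. With 5 kb added 30 did so (1.67 to 7.78 CPM per kb), against 7095 of all 25189 genes with a symbol. Housekeeping genes had a median of 0.225 CPM per kb.

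**Figure D2:**
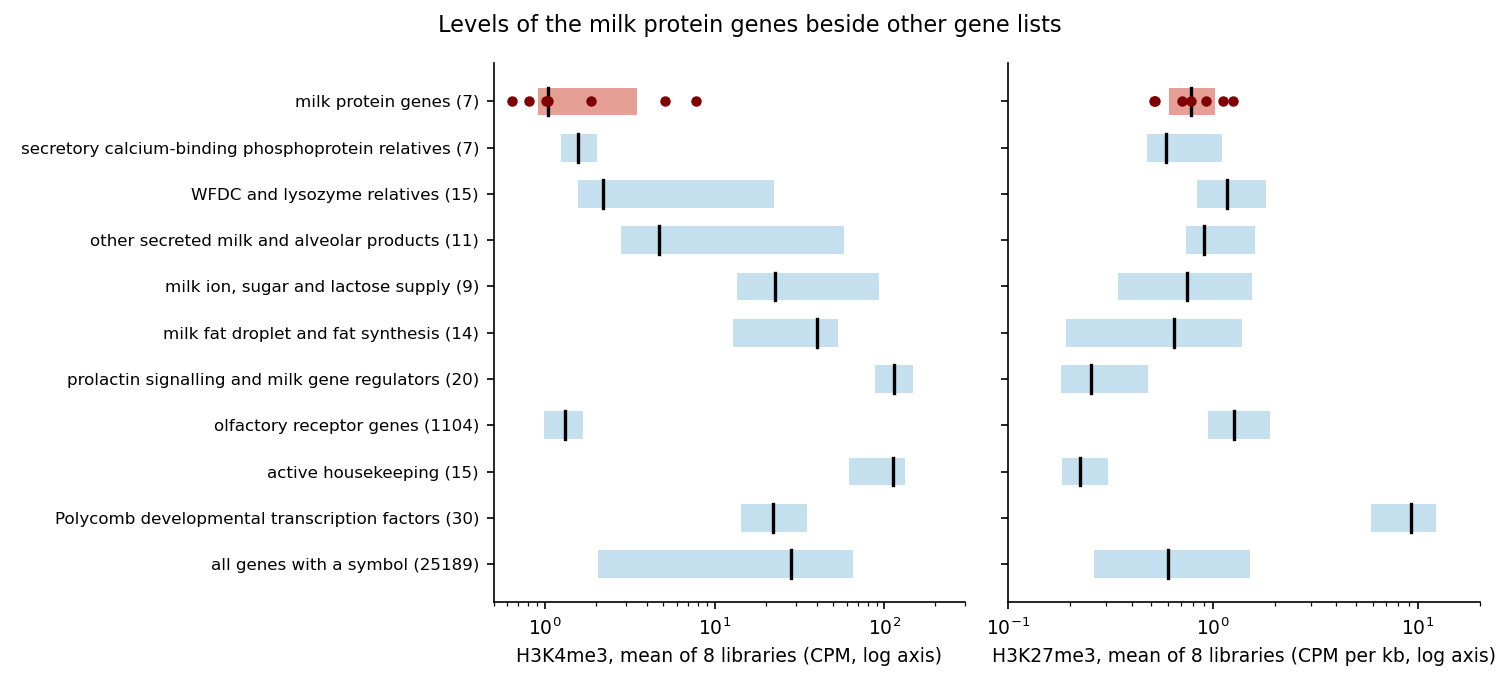
Mean level over 8 libraries of H3K4me3 (left, CPM) and H3K27me3 (right, CPM per kb of gene) on log axes, with the number of genes of each list in parentheses. Boxes span the middle 50% of a list, black lines give its median and dark red points the 7 milk protein genes, which had medians of 1.05 CPM and 0.782 CPM per kb, near the olfactory receptor genes for H3K4me3 and far below the Polycomb list for H3K27me3.

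Within the casein cluster H3K27me3 density was highest at Csn1s1, at one end, and lowest at Csn1s2b and Csn3, towards the other. Csn1s1 was the highest casein in 4 of 8 libraries. It exceeded Csn3 in 7 of 8 libraries and Csn1s2b in 7 of 8, and Csn2 exceeded Csn3 in 6 of 8. With 5 kb added to each gene's length, in case reads beside the gene were counted, the order among the caseins was the same except that Csn2 (0.451 CPM per kb) lay below Csn1s2a (0.523 CPM per kb). The same change took the short genes Wap to 0.435 and Lalba to 0.419 CPM per kb, below Csn1s1 at 0.711, so their place above the caseins depends on the length that is used.

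Csn1s1 had the largest difference of the 7 genes between Lgr5+ and Lgr5- cells in H3K27me3. It read 22.0 and 19.8 CPM in Lgr5+Tspan8hi, 20.5 and 12.8 CPM in Lgr5+Tspan8-, 9.04 and 11.3 CPM in Lgr5-Tspan8hi, and 13.2 and 13.1 CPM in Lgr5-Tspan8- cells. The Lgr5+ libraries averaged 18.7 ± 4.07 CPM and the Lgr5- libraries 11.6 ± 1.94 CPM (SD, n = 4 each), and they overlapped through Lgr5+Tspan8- replicate 2, at 12.8 CPM. The log2 fold change of Lgr5+ over Lgr5- was 0.67 ± 0.21 (SE), with an unadjusted edgeR p of 0.00336 and an adjusted p of 0.383, so it did not pass. Over 16 alternatives, which changed the processing or left out a library, the log2 fold change ran from 0.50 to 0.83. Between Tspan8hi and Tspan8- cells Csn1s1 did not separate, at 15.5 ± 6.31 CPM in Tspan8hi and 14.9 ± 3.72 CPM in Tspan8- libraries (SD, n = 4 each).

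Csn2 read 8.31 and 5.04 CPM of H3K27me3 in Lgr5+Tspan8hi, 4.17 and 5.23 CPM in Lgr5+Tspan8-, 1.88 and 5.10 CPM in Lgr5-Tspan8hi, and 6.70 and 6.16 CPM in Lgr5-Tspan8- cells. Its lowest value, from 5 counts, came from Lgr5-Tspan8hi replicate 1, the shallow library, and the other 7 libraries lay between 4.17 and 8.31 CPM. The interaction of Csn2 was 1.25 ± 0.68 on the log2 scale (edgeR adjusted p = 0.929), the largest of the 7 genes.

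Lalba read 2.16 and 3.17 CPM of H3K27me3 in Lgr5+Tspan8hi, 2.58 and 2.13 CPM in Lgr5+Tspan8-, 2.64 and 4.17 CPM in Lgr5-Tspan8hi, and 3.47 and 4.96 CPM in Lgr5-Tspan8- cells. Lgr5+ libraries averaged 2.51 ± 0.486 CPM and Lgr5- libraries 3.81 ± 0.989 CPM (SD, n = 4 each), a log2 fold change of -0.63 ± 0.42 (SE, edgeR adjusted p = 0.819). The ranges overlapped through Lgr5+Tspan8hi replicate 2 and Lgr5-Tspan8hi replicate 1.

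In the other 4 genes, as in Csn1s1, Csn2 and Lalba, the libraries of opposite sides overlapped in both comparisons. How often this was so over all genes was not computed. Csn1s2a read 11 and 13.6 CPM of H3K27me3 in Lgr5+Tspan8hi, 7.35 and 9.5 CPM in Lgr5+Tspan8-, 16.2 and 6.18 CPM in Lgr5-Tspan8hi, and 9.94 and 7.21 CPM in Lgr5-Tspan8- cells, so that both ends of its range came from Lgr5-Tspan8hi. Csn1s2b read 6.15 and 9.52 CPM in Lgr5+Tspan8hi, 9.53 and 4.46 CPM in Lgr5+Tspan8-, 13.2 and 9.27 CPM in Lgr5-Tspan8hi, and 6.94 and 8.56 CPM in Lgr5-Tspan8- cells. It too was highest in Lgr5-Tspan8hi replicate 1, the shallow library. Csn1s2a averaged 11.7 ± 4.28 CPM in Tspan8hi and 8.50 ± 1.42 CPM in Tspan8- libraries (SD, n = 4 each), a log2 fold change of 0.42 ± 0.28. Csn3 read 3.82 and 3.73 CPM in Lgr5+Tspan8hi, 4.77 and 3.88 CPM in Lgr5+Tspan8-, 4.52 and 1.55 CPM in Lgr5-Tspan8hi, and 3.70 and 2.85 CPM in Lgr5-Tspan8- cells, for a log2 fold change of 0.44 ± 0.42 for Lgr5+ over Lgr5-. Wap ranged from 2.00 to 5.04 CPM, and both ends came from Lgr5+Tspan8hi cells. Wap had log2 fold changes of 0.08 ± 0.41 (SE) for Tspan8hi over Tspan8- and -0.04 ± 0.41 for Lgr5+ over Lgr5-.

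**Figure D3:**
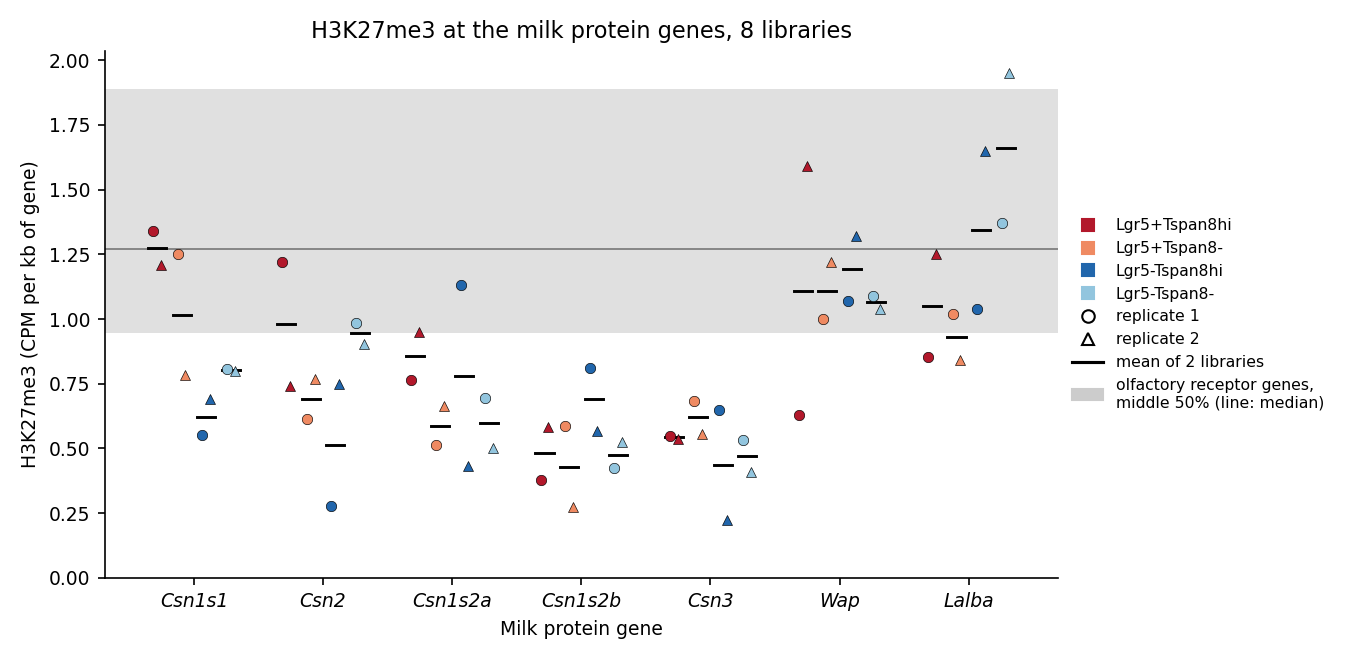
H3K27me3 in CPM per kb of gene (vertical axis) of each milk protein gene in 8 libraries, drawn with colours for subpopulations, circles and triangles for replicates 1 and 2, black bars for means and a grey band for the middle 50% of the olfactory receptor genes. Csn1s1 ran from 0.552 to 1.34 and Lalba from 0.841 to 1.95 CPM per kb, with overlap between Lgr5+ and Lgr5- libraries in both.

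All 7 genes were fitted for H3K27me3 and 0 of 7 passed in any comparison. Over the 22099 genes tested with edgeR, 0.335% passed for Tspan8hi over Tspan8-, 0.0407% for Lgr5+ over Lgr5-, 0.00905% for the interaction and 0.529% for any difference among the 4 subpopulations, so 0 of 7 is what the shares of all genes give. At an unadjusted edgeR p under 0.05 there were 0 of the 7 for Tspan8, 1 for Lgr5, 0 for the interaction and 1 for any difference, Csn1s1 in both cases. Of all 22099 genes tested, 2843, 1589, 1215 and 2452 had such a p, in the same order. Beside these numbers, 0 or 1 of 7 says nothing particular about the milk protein genes. limma-voom called 0 of the 7, and DESeq2 gave none of them an adjusted p, because its own filter on low counts set them aside. The edgeR adjusted p-values of the 7 ran from 0.574 to 0.997 for Tspan8, from 0.383 to 0.991 for Lgr5, from 0.929 to 0.999 for the interaction and from 0.307 to 0.998 for any difference. The median log2 fold change of the 7 genes was 0.11 for Lgr5+ over Lgr5- and 0.24 for the interaction, against -0.01 and 0.00 for all genes tested. For Tspan8hi over Tspan8- 3 of the 7 were above 0.

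**Figure D4:**
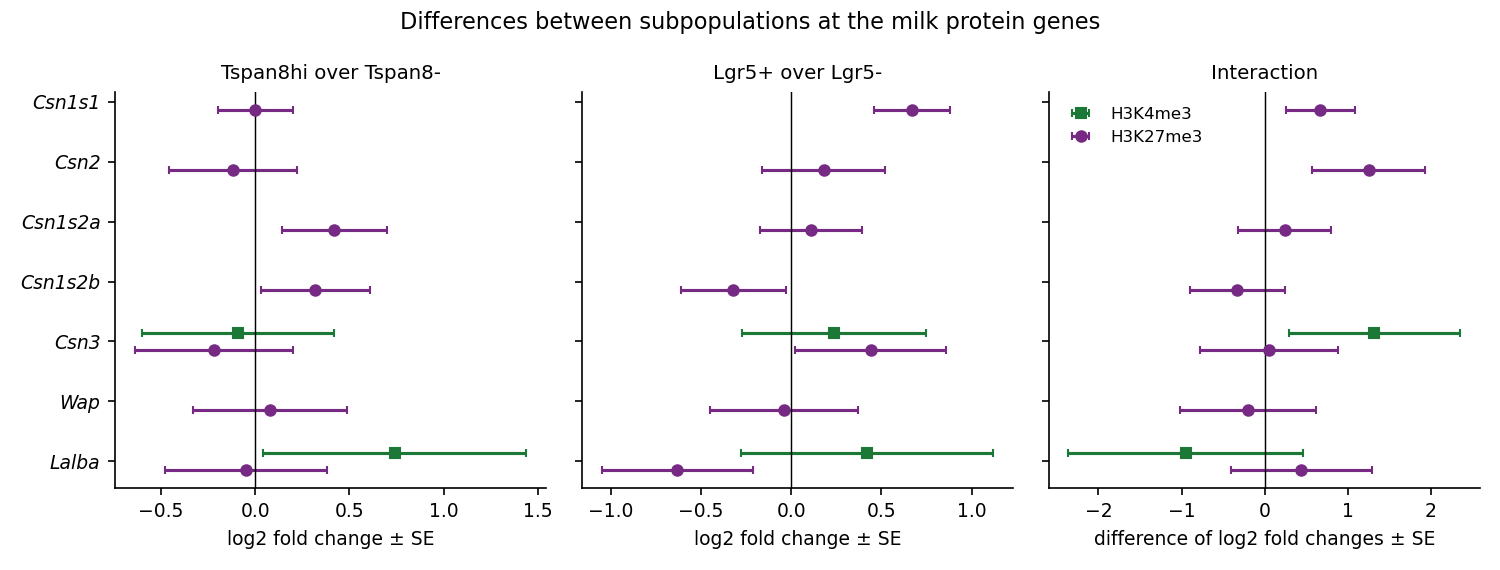
log2 fold changes with standard errors (horizontal axes) of the milk protein genes for Tspan8hi over Tspan8-, Lgr5+ over Lgr5- and their interaction, for H3K4me3 (squares, Csn3 and Lalba) and H3K27me3 (circles, all 7 genes). The value farthest from 0 in units of its error is that of Csn1s1 for Lgr5 in H3K27me3, at 0.67 ± 0.21.

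In the order of subpopulation means, 17 of the 21 neighbouring pairs overlapped in CPM for H3K4me3 and 17 of 21 for H3K27me3, with 3 pairs to each of the 7 genes. The share over all genes was not computed, so these numbers say nothing particular about the 7 genes. Pairs that did not overlap rest on 2 libraries a side. For H3K4me3, Lgr5-Tspan8- lay above Lgr5+Tspan8- at Csn1s1, on 2 and 6 counts against 0 and 0. At Csn2, Lgr5+Tspan8hi lay above Lgr5-Tspan8hi, on 1 and 2 counts against 0 and 0. At Wap, Lgr5-Tspan8- lay above Lgr5+Tspan8hi and Lgr5+Tspan8hi above Lgr5+Tspan8-. For H3K27me3 the pairs were Lgr5-Tspan8- above Lgr5-Tspan8hi at Csn1s1 and Lgr5-Tspan8- above Lgr5+Tspan8- at Csn2. At Csn3 they were Lgr5+Tspan8- above Lgr5+Tspan8hi and Lgr5+Tspan8hi above Lgr5-Tspan8-.

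The genes within 150 kb of the milk protein genes placed them in 3 different settings. In the casein region on chromosome 5, the 11 other genes had H3K4me3 of 1.21 to 2.79 CPM, all below Csn3. They include the sulfotransferase genes Sult1b1, Sult1d1 and Sult1e1 (1.43, 1.42 and 2.05 CPM), Prr27 (1.36 CPM), the ameloblast gene Odam (2.20 CPM), the pseudogene Gm7337 (2.79 CPM), 1700066N21Rik (1.21 CPM), BC051076 (2.27 CPM), Cabs1 (1.61 CPM), Smr3a (1.58 CPM) and Mir3969 (1.69 CPM). H3K27me3 of these neighbours ran from 0.137 CPM per kb at Smr3a to 0.904 CPM per kb at Sult1b1, leaving out Mir3969, which is too short for a density per kb.

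Wap lay between genes with much more H3K4me3. Ccm2 had 76.0 CPM, Tbrg4 72.6 CPM, Snhg15 62.6 CPM and Nacad 43.2 CPM on one side, and Gm11978 16.8 CPM and Ramp3, a partner of the calcitonin receptor-like receptor, 17.9 CPM on the other, against 1.88 CPM at Wap. Myo1g (2.14 CPM), Snora5c (5.26 CPM) and Gm11981 (1.92 CPM) were low. H3K27me3 averaged 1.12 CPM per kb at Wap, 0.144 at Tbrg4 and 1.20 at Ramp3.

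Lalba lay at the edge between olfactory receptor genes and a stretch of genes rich in H3K4me3. Olfr284, Olfr283, Olfr282 and Olfr281 on one side had 0.882 to 2.41 CPM, 1700031M16Rik 1.37 CPM, and Olfr279 on the other side 3.05 CPM, all below Lalba at 5.12 CPM. Beyond Olfr279 came Kansl2 (81.3 CPM), Ccnt1 (91.9 CPM), 9330020H09Rik (96.3 CPM), Adcy6 (102 CPM), Cacnb3 (60.0 CPM) and 4930415O20Rik (35.0 CPM), with Snora34 (3.31 CPM) and Snora2b (3.29 CPM) inside Kansl2. H3K27me3 averaged 1.25 CPM per kb at Lalba, 1.55 at Olfr279 and 0.260 at Kansl2.

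**Figure D5:**
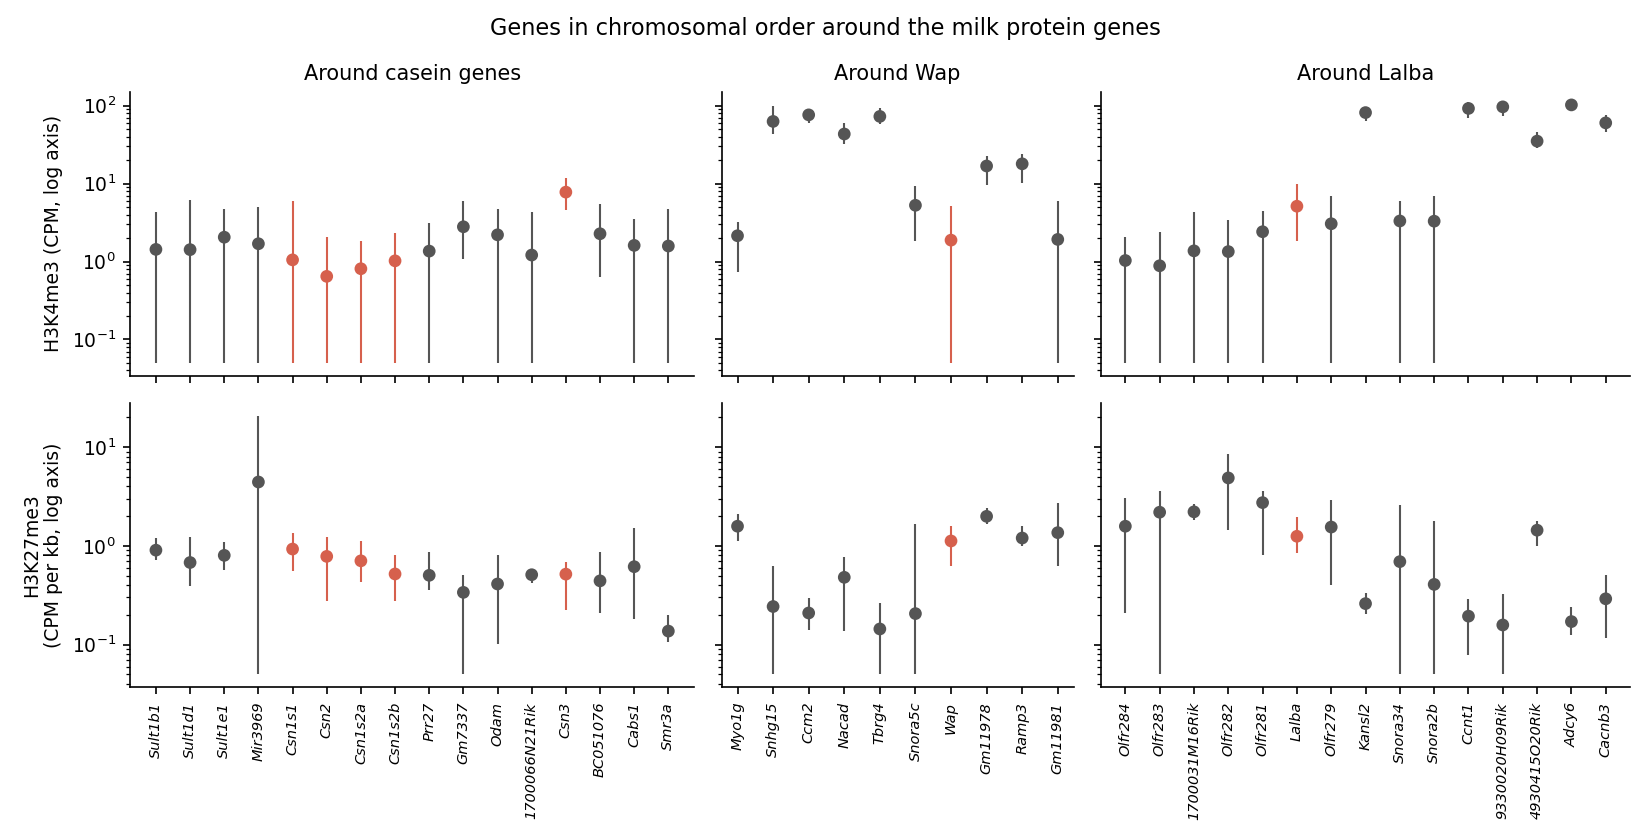
Genes within 150 kb of the caseins, Wap and Lalba in chromosomal order (horizontal axes), with H3K4me3 in CPM above and H3K27me3 in CPM per kb below, on log axes. Points are means over 8 libraries and lines run from the lowest to the highest library, with values under 0.05 drawn at 0.05 and milk protein genes in red. Csn3 is the highest H3K4me3 point of the casein region at 7.76 CPM, and Wap lies below Tbrg4 and Ramp3.

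H3K4me3 across all genes differed with the CpG content of the promoter, and the 5 milk protein genes with a window were set against the genes that hold as few CpG. The 4295 genes whose windows hold at most 3 CpG had a median of 1.52 CPM (middle 50% from 1.05 to 2.36), and the 14163 genes with more had a median of 50.4 CPM. Among the genes with at most 3 CpG, Lalba lay above 87.8% in H3K4me3, Wap above 63.4%, Csn1s1 above 25.1%, Csn1s2a above 14.1% and Csn2 above 9.57%. Lalba thus lay above the middle 50% of this class, Csn2 and Csn1s2a below it, and Csn1s2b and Csn3 were not placed in it. Per kb of gene, the H3K27me3 density of this class had a median of 1.11 CPM per kb (middle 50% from 0.661 to 1.80), against 0.367 CPM per kb in the genes with more CpG. In that mark Lalba lay above 56.7% of the class, Wap above 50.8%, Csn1s1 above 40.3%, Csn2 above 31.7% and Csn1s2a above 27.5%. Like the order beside the olfactory receptor genes, these densities may depend on the gene length used, which was not tested for this class.

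Most of the 20 listed genes of prolactin signalling and milk gene regulation carried far more H3K4me3 than the milk protein genes. Of the 20 listed genes of prolactin signalling and milk gene regulation, 18 lay above every milk protein gene, with a median of 114 CPM. Most genes did so too, since Csn3, the highest milk protein gene, lay above 39.5% of all genes with a symbol, whose median was 28.1 CPM. Highest were Gata3, a luminal transcription factor (256 CPM), Nfib, of the nuclear factor I family (250 CPM), and Yy1 (181 CPM). Among genes picked for their role after the values were seen, Stat5a had 78.5 ± 8.93 CPM, Stat5b 97.8 ± 15.8 CPM, Jak2 114 ± 11.5 CPM and the prolactin receptor gene Prlr 30.9 ± 5.13 CPM (SD, n = 8). The 2 exceptions were Elf5, a driver of alveolar differentiation, at 1.79 ± 1.31 CPM and Nfia at 2.29 ± 1.91 CPM, both within the range of the casein genes. The region counted is not stated, and the housekeeping gene Ywhaz read 0.495 CPM. Low counts at Elf5 and Nfia thus do not show that every promoter of these genes lacks the mark. H3K27me3 on the list was low, with a median of 0.254 CPM per kb, and was 1.03 CPM per kb at Prlr and 0.995 at Elf5.

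Genes of other milk components were mixed, and their numbers are to be read beside the 39.5% of all genes that lay below Csn3. Of the 14 genes of the milk fat droplet and fat synthesis, 10 lay above every milk protein gene in H3K4me3, with a median of 40.1 CPM and the highest values at Fasn, fatty acid synthase (110 CPM), Gpam (83.7 CPM) and Srebf1 (66.1 CPM). Of the 9 genes of ion, sugar and lactose supply, 7 did, led by Slc12a2 (128 CPM), the glucose transporter gene Slc2a1 (119 CPM) and B4galt1 (93.5 CPM), the galactosyltransferase that alpha-lactalbumin binds to form lactose synthase. Of the 11 other secreted milk and alveolar products, 5 did, led by Lcn2 (105 CPM), Pthlh (94.8 CPM) and Mfge8 (66.6 CPM), while Glycam1, another milk protein of the mouse, had 1.81 CPM. Glycam1 also had more H3K27me3 than any of the 7 genes, at 3.19 CPM per kb. In all these lists 0 genes passed for either mark in any of the comparisons. Between 0% and 0.529% of all genes tested passed in them, so this says nothing particular about the listed genes.

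The relatives of the milk protein genes by descent were closer to them in level. Caseins belong to the secretory calcium-binding phosphoproteins, with tooth enamel and saliva genes, and 7 of the 10 listed relatives were matched. All 7 had H3K4me3 between 0.446 CPM at Enam and 2.67 CPM at Prol1, below Csn3 and Lalba. Highest after Prol1 were Odam (2.20 CPM) and Ambn (1.89 CPM). Of 15 relatives of Wap and Lalba, from the WFDC and lysozyme families, 5 lay above every milk protein gene, led by Wfdc3 (57.9 CPM), Slpi (57.7 CPM) and Lyzl4 (53.3 CPM), and 9 had less than 3 CPM. Of all genes with a symbol, 39.5% lay below Csn3, the highest milk protein gene. In both families of relatives 0 genes passed for either mark, against 0% to 0.529% of all genes tested, which says nothing particular about them.

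Of 20 basal markers, 18 had more H3K4me3 than any milk protein gene, led by Dll1 (188 CPM), Oxtr (170 CPM) and Krt5 (141 CPM), and the summed basal markers ran from 1820 to 2250 CPM over the libraries. Trp63, at 1.78 CPM, and Mylk, at 5.82 CPM, were low in the region counted, which may not cover every promoter. Most genes had more H3K4me3 than any milk protein gene, since Csn3, the highest of the 7, lay above 39.5% of all genes. More H3K4me3 than any milk protein gene was also found at 12 of 12 pan-luminal, 10 of 10 hormone-sensing luminal, 7 of 10 luminal progenitor, 10 of 12 fibroblast, 6 of 10 adipocyte, 5 of 10 endothelial and 1 of 10 immune markers, so these counts do not single out basal cells. One of the luminal progenitor markers is Csn3 itself, which could not be counted. Summed luminal progenitor markers, a list of 10 that includes Csn3, ran from 401 to 504 CPM, hormone-sensing luminal markers from 372 to 447 CPM, pan-luminal markers from 801 to 991 CPM and adipocyte markers from 295 to 354 CPM. Fibroblast markers ran from 287 to 474 CPM, endothelial markers from 79.3 to 176 CPM, and immune markers from 25.2 to 46.9 CPM, with 8 of 10 below 3 CPM. Their part in the low H3K4me3 of Csn3 and Lalba was not tested. From these lists, the fibroblast gene Dcn passed for H3K4me3 (log2 fold change -1.52 ± 0.24 for Lgr5+ over Lgr5-, edgeR adjusted p = 0.000145), and Pparg for H3K27me3 (-0.49 ± 0.09 for Tspan8hi over Tspan8-, edgeR adjusted p = 0.00653). Mylk passed for any difference in H3K27me3 (edgeR adjusted p = 0.0327).

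The summed H3K4me3 of the 7 genes was 30.4 and 16.3 CPM in Lgr5+Tspan8hi, 10.6 and 19.9 CPM in Lgr5+Tspan8-, 13.7 and 19.3 CPM in Lgr5-Tspan8hi, and 20.4 and 15.8 CPM in Lgr5-Tspan8- cells. The highest sum came from Lgr5+Tspan8hi replicate 1, which also held the highest Csn1s1 and Lalba values. The same library had the highest summed endothelial markers (176 CPM, against 79.3 to 137 CPM in the others), the highest pan-luminal markers (991 CPM, against 801 to 964 CPM) and the lowest basal markers (1820 CPM, against 1960 to 2250 CPM). Their part in its milk protein gene values was not tested. Without it, Csn1s1 ran from 0 to 1.27 CPM, and the Lalba log2 fold change was 0.11 for Tspan8hi over Tspan8- and -0.21 for Lgr5+ over Lgr5-. The genes most like this sum over the 8 libraries, out of 15857 compared, were the homeobox gene Lhx8 (Pearson r = 0.953 on log2(CPM + 1)), Ovol3 (r = 0.938) and Hivep3 (r = 0.935). Summed H3K27me3 was 55.4 and 59.9 CPM in Lgr5+Tspan8hi, 52.0 and 41.9 CPM in Lgr5+Tspan8-, 50.9 and 41.7 CPM in Lgr5-Tspan8hi, and 47.4 and 46.1 CPM in Lgr5-Tspan8- cells. The genes most like it, of 17564 compared, were the protease gene Tmprss11c (r = 0.952), Bard1 (r = 0.931), whose product pairs with BRCA1, and Lin54 (r = 0.929). These correlations describe 8 libraries that share depth and scaling, and were picked as the highest of all genes compared.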

How the data were processed

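The authors deposited raw read counts per Entrez gene, without normalization, for 16 immunoprecipitated libraries of sorted basal cells. The submitters' processing notes name featureCounts and mm10. The aligner, the annotation and the region counted per gene were not stated in the labels or files, and the 8 input samples were not analysed here. The H3K4me3 counts of 1655 gene pairs with starts less than 1 kb apart had a median ratio of 1.013, against 4.145 for 1137 such pairs in H3K27me3, and Spearman's rho of gene length and count was 0.349 and 0.797, across genes.

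Symbols, positions and promoter sequences came from RefSeq tables of GRCm38.p6, the assembly of mm10, and 1891 identifiers had no symbol. Each mark was fitted on its 8 libraries with edgeR 4.0.16 in R 4.3.3 (filterByExpr, TMM, robust quasi-likelihood test), which kept 19009 genes for H3K4me3 and 22099 for H3K27me3. Effects were averaged over the other factor. limma 3.58.1 (voom), DESeq2 1.42.0, RLE factors, library totals, loess offsets, other filters, a replicate block and each library left out were alternatives. Deviations of same-numbered libraries had correlations of -0.03 to 0.14 over all tested genes, which does not exclude a replicate effect at some genes. The script was tested on simulated data.

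The genes and gene lists were chosen with earlier results of these data known. Named genes were the 7 genes, all genes within 150 kb of them, the listed genes past the threshold or, failing these, the 3 with the highest level, and the 3 genes per mark most like the summed level, leaving aside olfactory receptors, small RNAs, clones and predicted genes. Other named genes were picked after their values were seen.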

Additional observations from a re-analysis of the deposited data

Results flagged for a closer look

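Single libraries lay far from the other 3 on their side of a comparison in 9 of 56 groups of 4 libraries. The rule's nominal rate of about 1 in 20 groups does not hold for counts near 0. A group with 3 libraries at 0 and 1 above 0 is always flagged, as for Csn1s1 and Csn2 in H3K4me3. The number of flags therefore cannot be set against chance. A library belongs to both a Tspan8 and an Lgr5 group, so the groups are not independent, and most flags rest on few counts.

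Csn1s1 H3K4me3 in Lgr5+Tspan8hi replicate 1 (6.00 CPM, 14 counts) lay above the 0 CPM of the other 3 Tspan8hi libraries and of the other 3 Lgr5+ libraries. Csn2 H3K4me3 in Lgr5+Tspan8- replicate 2 (2.05 CPM, 3 counts) lay above the other Lgr5+ libraries, at 0.365 to 0.626 CPM. Csn2 H3K4me3 in Lgr5-Tspan8- replicate 2 (1.69 CPM, 8 counts) lay above 0 CPM in the other Lgr5- libraries. Csn1s2a H3K4me3 in Lgr5-Tspan8hi replicate 1 (1.82 CPM, 4 counts) lay above the other Lgr5- libraries, at 0.583 to 0.788 CPM. Wap H3K4me3 in Lgr5-Tspan8hi replicate 2 (5.12 CPM, 13 counts) lay above the other Tspan8hi libraries, at 1.25 to 1.71 CPM. Lalba H3K4me3 in Lgr5+Tspan8- replicate 2 (8.90 CPM, 13 counts) lay above the other Tspan8- libraries, at 1.82 to 2.96 CPM.

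For H3K27me3, Csn1s1 in Lgr5+Tspan8- replicate 1 (20.5 CPM, 103 counts) lay above the other Tspan8- libraries, at 12.8 to 13.2 CPM. Csn3 in Lgr5+Tspan8- replicate 1 (4.77 CPM, 24 counts) lay above the other Lgr5+ libraries, at 3.73 to 3.88 CPM.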

How the results depend on the processing

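No milk protein gene passed in any comparison of either mark under any alternative that gave an adjusted p, and DESeq2 gave none for H3K27me3. Of 423 alternative log2 fold changes, 385 kept their direction and 38 reversed, for values that did not pass. The reversed values were 0.07 (loess offsets) and 0.11 (limma-voom) for Csn3 in H3K4me3 with Tspan8, and -0.16 (limma-voom) for Lalba in H3K4me3 with Lgr5. For H3K27me3 with Tspan8 they were 0.05 (library totals), 0.03 (limma-voom) and 0.01 (replicate block) for Csn1s1, and 0.01 (library totals) for Lalba. With a library left out, the reversing H3K4me3 values ran from -0.30 to 0.15 for Csn3 with Tspan8, from -0.30 to 0.82 for Lalba with Lgr5, and from -2.20 to 0.50 for the Lalba interaction. In H3K27me3 with Tspan8 they ran from -0.17 to 0.17 for Csn1s1, -0.64 to 0.08 for Csn2, -0.64 to 0.13 for Csn3, -0.32 to 0.35 for Wap and -0.28 to 0.09 for Lalba. With Lgr5 they ran from -0.02 to 0.70 for Csn2, -0.19 to 0.50 for Csn1s2a and -0.44 to 0.22 for Wap, and for the interaction from -0.37 to 1.01 for Csn1s2a, -0.75 to 0.33 for Csn1s2b, -0.65 to 0.88 for Csn3 and -0.99 to 0.33 for Wap. The causes were not tested.

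Whether the replicate numbers pair the libraries is not settled, since low correlations over all tested genes do not exclude a replicate effect at some genes. The replicate block called 0 of the milk protein genes, and over all genes it called 678 for H3K27me3 with Tspan8, against 74 without it, 80 against 9 with Lgr5, 13 against 2 for the interaction and 670 against 117 for any difference. Over the other alternatives the H3K27me3 counts of all genes ran from 64 to 480 for Tspan8, 8 to 69 for Lgr5, 2 to 15 for the interaction and 109 to 407 for any difference. H3K4me3 counts ran from 9 to 13, 5 to 11, 0 to 2 and 14 to 30. With a library left out they ran from 13 to 1240, 3 to 165, 0 to 109 and 38 to 979 for H3K27me3, and from 1 to 105, 1 to 14, 0 to 15 and 3 to 97 for H3K4me3. The H3K27me3 counts were highest without Lgr5-Tspan8- replicate 1, except for the interaction, which like the H3K4me3 counts was highest without Lgr5-Tspan8hi replicate 2. Depth limits 5 of the 7 genes in H3K4me3, at 15 to 42 counts over 8 libraries. Adding 5 kb to gene lengths moved the H3K27me3 density of Csn2, Csn3, Wap and Lalba by more than their SD, and put all 7 genes above the olfactory receptor median.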
